A study of Homo sapiens with 6 samples.

Results

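Complex I, the NADH:ubiquinone oxidoreductase of the mitochondrial respiratory chain, was examined through the RNA of its genes in D283 Med cells, a human medulloblastoma line of the Group 3 subtype with an amplified MYC gene. The genes were chosen by name: every protein-coding gene whose symbol starts with NDUFA, NDUFB, NDUFC, NDUFS, NDUFV or NDUFAF, and the 7 mitochondrially encoded MT-ND genes. This gave 55 genes of 60664 in the files, 48 encoded in the nucleus and 7 in mitochondrial DNA. Polyadenylated RNA was sequenced from 6 libraries of cells that had received antisense LNA GapmeRs, by which RNase H is made to cleave the paired RNA. In 3 control libraries the GapmeR was a scrambled one (SCR), and in 3 knockdown libraries (KD) it was directed at the long non-coding RNA lncMB3. All 6 share the cell line and the transfection, and 1 line was studied, so cells of other tumours or of normal tissue were not compared. The question was which transcripts differ between the KD and SCR cells. The level of lncMB3 itself was not analysed here, so directions are drawn from the labels. Whether the 3 libraries of a group are separate cultures is not labelled, so the p-values speak to a spread among libraries that could be technical alone. Values below are listed in the order of libraries 1, 2 and 3 of each group.

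Complex I takes electrons from NADH, passes them to ubiquinone and pumps protons across the inner mitochondrial membrane. Its peripheral arm, in the matrix, binds NADH, flavin and iron-sulphur clusters, and its membrane arm holds the proton channels. The core subunits that do the catalysis are encoded in both genomes: those of the peripheral arm in the nucleus and those of the membrane arm in mitochondrial DNA. Accessory subunits, all nuclear, surround the core, and assembly factors build the complex without staying in it. Mitochondrial genes are transcribed from both strands as long precursors and cut into single mRNAs, so the nuclear and mitochondrial parts of the complex are made by separate transcription systems.

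Total counts per library ran from 7765826 to 20035834, with the fewest in knockdown library 1. All 7 Group 3 marker genes checked were above 1 CPM (counts per 1000000 counts of a library) in the controls, with a summed level of 2850 to 3090 CPM in controls and 2700 to 2790 CPM in the knockdown. Of 8 mesenchymal, endothelial, immune and epithelial markers, COL1A1 alone passed the low-count filter (13.7 to 21.8 CPM), and of the glial markers OLIG2 was at 3.64 to 4.75 CPM and MBP at 0 in all 6 libraries. Knockdown library 2 stood apart in the genes described here. The counts and medians of the complex I lists, and the called genes that lose their call without it, are also given without it below.

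All 55 genes passed the low-count filter and were tested. Of these, 14 were higher in the knockdown and 1 was lower at an adjusted p under 0.05 in edgeR's quasi-likelihood test. Over all 14673 genes tested 31.7% were called, 15.9% higher and 15.9% lower, against 25.5% higher and 1.82% lower among the 55. The median log2 change (knockdown over control) of the 55 was 0.20, against 0.00 for all genes tested, and 48 of the 55 had a log2 change above 0. Without knockdown library 2, 10 were higher and 1 lower (14.6% of all genes were then higher), the median of the 55 was 0.14, and 39 had a log2 change above 0. Of those 10, 6 were MT-ND genes. With upper-quartile scaling 1773 genes were higher and 2803 lower over all genes, 12.1% and 19.1% of those tested, in place of 2328 and 2329, and 6 of the 55 were higher and 1 lower. The groups did not overlap, with the knockdown higher, for 17 of the 55 and, with the knockdown lower, for 1. Over all genes tested 46.0% did not overlap, 22.9% with the knockdown higher and 23.1% with it lower. Apart from NDUFA4L2 and NDUFAF4, the called genes rose by 1.20- to 1.498-fold. Across all settings tried, NDUFAF4, NDUFAF8, NDUFAB1 and NDUFA4L2 kept their calls and the other 11 called genes lost theirs in at least 1. By the annotation, 29 of the 55 share exon bases with another gene, so that the split of their reads is uncertain. Libraries of bulk RNA cannot tell fewer cells making a transcript from less of it per cell.

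**Figure D1:**
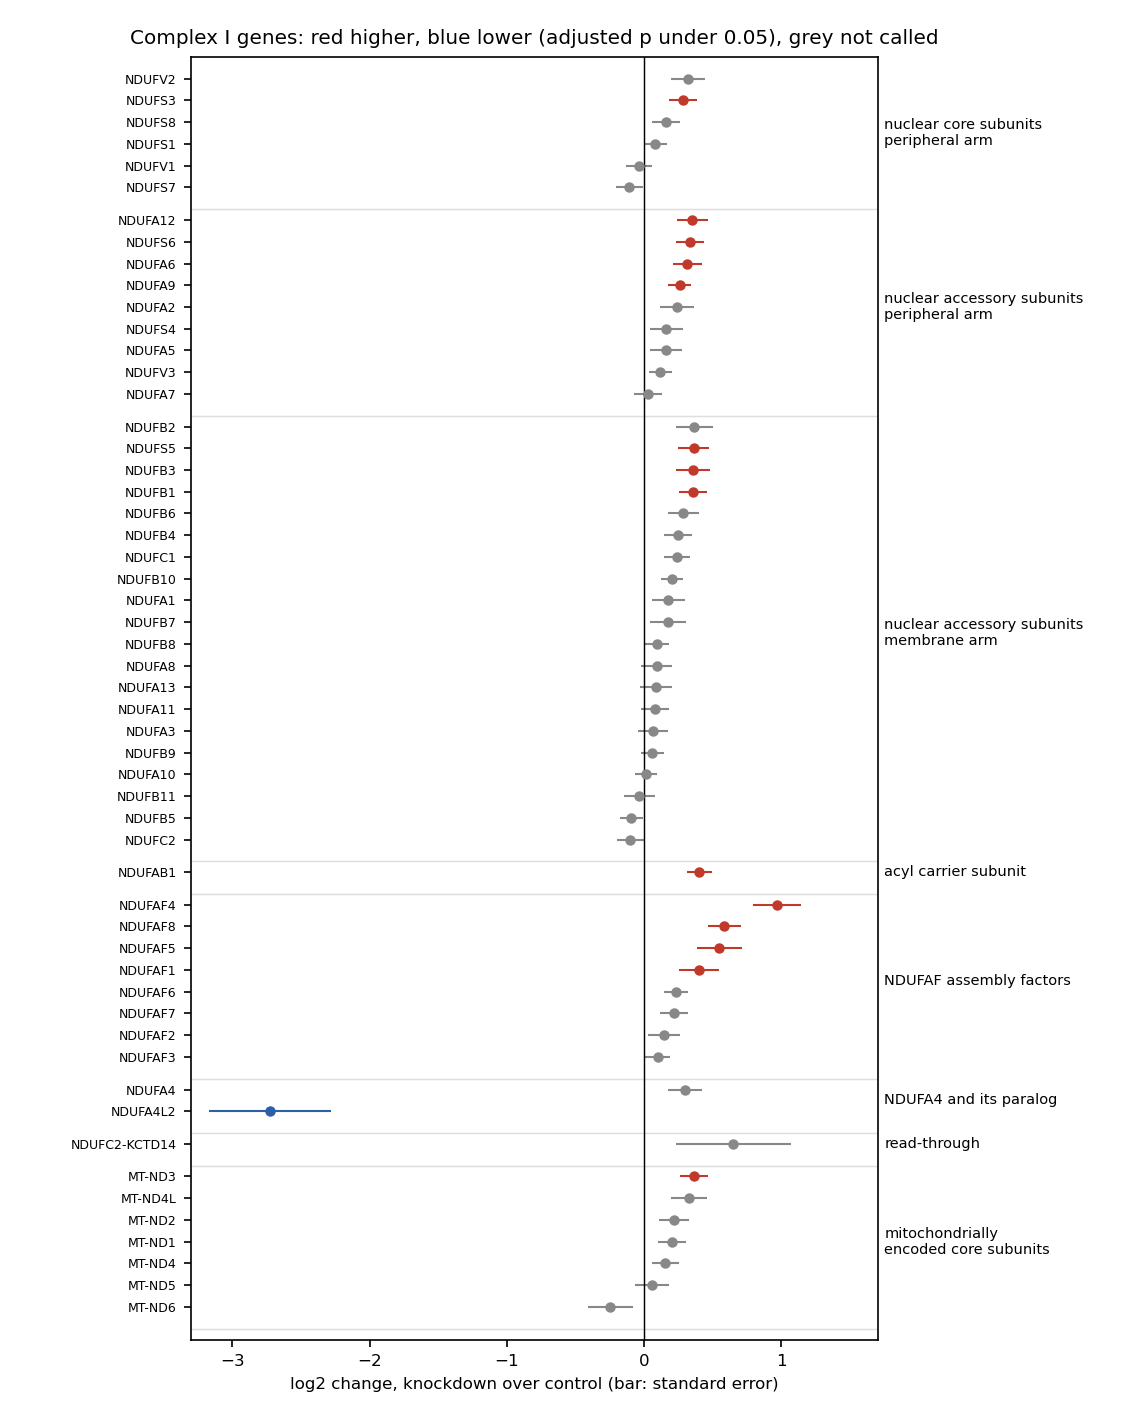
Log2 change (knockdown over control, horizontal axis) of the complex I genes, with its standard error as a bar, grouped by role. Red points were called higher and blue lower at an adjusted p under 0.05, grey points were not called. Most points lie a little to the right of 0, NDUFAF4 lies farthest right at 0.97 and NDUFA4L2 far to the left at -2.73.

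The 7 nuclear core subunits, which carry the redox centres of the peripheral arm, gave 1 rise (14.3%) and 0 falls, with a median log2 change of 0.08. Of all genes tested, 15.9% were higher and 15.9% lower. Without knockdown library 2 the median of the 7 was 0.05. The gene called was NDUFS3 (GRCh38, GENCODE release 29, chromosome 11, 47565336 to 47584562), a subunit near the ubiquinone-reducing end. It stood at 68.0, 63.3 and 59.4 CPM (controls) and 75.1, 88.6 and 68.4 CPM (knockdown). The groups did not overlap, and the lowest knockdown library was only just above the highest control. The mean went from 63.6 ± 4.32 to 77.4 ± 10.3 CPM (SD, n = 3 each), 1.22-fold higher (log2 change 0.29 ± 0.10, adjusted p = 0.0437). NDUFS3 lost its call when control 2 (adjusted p = 0.129), control 3 (0.152), knockdown library 1 (0.0741) or knockdown library 2 (0.178) was left out and under limma-voom (0.0513) and upper-quartile scaling (0.0986). Without knockdown library 2 its log2 change was 0.17. NDUFS3 shares 721 annotated exon bases on its own strand with PTPMT1, a mitochondrial phosphatase gene, whose log2 change was 0.19 (adjusted p = 0.125), so the split of reads between them is uncertain. NDUFV2, which binds an iron-sulphur cluster, had the highest log2 change of the 7 but was not called (log2 change 0.32 ± 0.12, adjusted p = 0.0608). Its libraries were at 45.1, 41.5 and 32.2 CPM (controls) and 44.6, 56.8 and 46.2 CPM (knockdown), and control 1 overlapped the knockdown libraries. At the other end NDUFS7, a subunit of the ubiquinone site, was at 62.9, 62.7 and 65.0 CPM (controls) and 56.6, 67.9 and 51.9 CPM (knockdown), with a log2 change of -0.11 ± 0.10 (adjusted p = 0.429). There, knockdown library 2 was the highest of the 6 and the other knockdown libraries the lowest. NDUFV1, the flavin-binding subunit, had a log2 change of -0.04 and NDUFS8 one of 0.16, both with overlapping groups. Per kilobase of transcript, with annotated lengths that are approximate, NDUFS8 had the highest control level of the 7, 90.2 ± 3.22 CPM per kb. NDUFS1 was the lowest, 19.9 ± 1.18.

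Of the 9 accessory subunits of the peripheral arm 4 rose (44.4%) and 0 fell (median log2 change 0.24), beside 15.9% and 15.9% of all genes tested. Without knockdown library 2, 1 of the 9 rose, with a median of 0.10, where 14.6% of all genes tested were higher. NDUFA12, which sits beside the NADH-oxidising module, was at 57.8, 53.2 and 44.9 CPM (controls) and 66.3, 75.4 and 57.1 CPM (knockdown). Control 1 lay just above knockdown library 3, so the groups overlapped although the mean rose 1.28-fold (log2 change 0.35 ± 0.11, adjusted p = 0.0302). NDUFS6, a zinc-binding subunit, was at 66.8, 61.5 and 60.5 CPM (controls) and 82.1, 89.2 and 67.1 CPM (knockdown). Its groups met without overlapping, at control 1 and knockdown library 3 (rise of 1.26-fold, log2 change 0.33 ± 0.10, adjusted p = 0.0234). NDUFA6, a subunit of the LYR protein family that binds an acyl carrier protein, was at 72.1, 67.3 and 62.5 CPM (controls) and 75.7, 98.6 and 75.9 CPM (knockdown). The knockdown libraries were all higher than the controls, with library 2 well above the others (rise of 1.24-fold, log2 change 0.32 ± 0.11, adjusted p = 0.0361). NDUFA9, a subunit that holds a bound NADPH near the joint of the arms, was at 79.0, 77.9 and 72.4 CPM (controls) and 95.1, 92.7 and 86.7 CPM (knockdown). Its groups were clearly separate and knockdown library 1, not 2, was the highest (rise of 1.20-fold, log2 change 0.26 ± 0.08, adjusted p = 0.0270). NDUFA9 shares 1103 exon bases with an unnamed protein-coding gene on its strand whose log2 change was 0.11 (adjusted p = 0.654). With another such gene it shares 606 exon bases. That gene was at 5.44, 0 and 5.31 CPM (controls) and 0, 1.15 and 1.41 CPM (knockdown), with a log2 change of -1.78 (adjusted p = 0.114). The split of reads among these genes is uncertain. The other 5 subunits of the list had log2 changes from 0.03 for NDUFA7 to 0.24 for NDUFA2 and were not called. NDUFA7 had the highest control level of the list per kilobase, 102 ± 9.62 CPM per kb, and was at 67.6, 60.5 and 56.2 CPM (controls) and 61.9, 70.9 and 55.0 CPM (knockdown).

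None of these 4 calls held in all settings. NDUFA12 lost its call when control 2 (adjusted p = 0.0768), control 3 (0.136), knockdown library 1 (0.0675) or knockdown library 2 (0.133) was left out and under upper-quartile scaling (0.0612). NDUFS6 lost its call when control 2 (adjusted p = 0.0929), control 3 (0.0792), knockdown library 1 (0.0719) or knockdown library 2 (0.0948) was left out and under upper-quartile scaling (0.0536). NDUFA6 lost its call when control 2 (adjusted p = 0.107), control 3 (0.131) or knockdown library 2 (0.156) was left out and under upper-quartile scaling (0.0792). NDUFA9 lost its call when control 2 (adjusted p = 0.0854), control 3 (0.113) or knockdown library 1 (0.0993) was left out and under no low-count filter (0.0633) and upper-quartile scaling (0.0720). Without knockdown library 2 NDUFA9 alone of the 4 remained called, with a log2 change of 0.25 (adjusted p = 0.0453), and the log2 changes were 0.24 for NDUFA12, 0.23 for NDUFS6 and 0.17 for NDUFA6.

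The 20 accessory subunits of the membrane arm are mostly small proteins with a single membrane helix or a twin-cysteine fold. They gave 3 rises (15.0%) and 0 falls (median log2 change 0.13), beside 15.9% higher and 15.9% lower of all genes tested. At an unadjusted p under 0.05, 8 of the 20 were higher, as were 3159 of all 14673 genes tested. With knockdown library 2 left out the median was 0.00, and 10 of the 20 had a log2 change above 0. NDUFS5, which lies on the intermembrane-space side, was at 140.4, 133 and 112 CPM (controls) and 150.1, 194 and 149 CPM (knockdown). The knockdown libraries were all above the controls (rise of 1.28-fold, log2 change 0.36 ± 0.11, adjusted p = 0.0249). NDUFB1 was at 32.5, 33.6 and 29.8 CPM (controls) and 38.4, 46.4 and 37.3 CPM (knockdown), again without overlap (rise of 1.28-fold, log2 change 0.35 ± 0.10, adjusted p = 0.0173). NDUFB3 was at 41.4, 40.1 and 30.3 CPM (controls) and 43.7, 54.2 and 44.5 CPM (knockdown), and here control 3 was far below the other controls (rise of 1.28-fold, log2 change 0.36 ± 0.12, adjusted p = 0.0368). In each of the 3 genes knockdown library 2 was the highest. NDUFB3 shares 218 exon bases with HYCC2 on the opposite strand, which had a log2 change of 0.50 (adjusted p = 0.0160). The library kit was a stranded one, but no source states that counting used strand, so the split of reads between the pair is uncertain. NDUFS5 lost its call when control 2 (adjusted p = 0.0635), control 3 (0.115) or knockdown library 2 (0.104) was left out and under upper-quartile scaling (0.0510). NDUFB1 lost its call when control 3 (adjusted p = 0.0740) or knockdown library 2 (0.0747) was left out. NDUFB3 lost its call when control 2 (adjusted p = 0.0596), control 3 (0.167), knockdown library 2 (0.159) or knockdown library 3 (0.0555) was left out and under upper-quartile scaling (0.0717). On leaving out knockdown library 2 the log2 changes were 0.22 for NDUFS5, 0.24 for NDUFB1 and 0.25 for NDUFB3.

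NDUFB2 had the highest log2 change of the membrane-arm list and narrowly missed the threshold (log2 change 0.37 ± 0.13, adjusted p = 0.0506). It was at 28.1, 25.6 and 21.1 CPM (controls) and 29.1, 38.9 and 27.8 CPM (knockdown), with control 1 inside the knockdown range. NDUFC2 lay at the other end, at 122, 119 and 111 CPM (controls) and 100.03, 127 and 100.4 CPM (knockdown), with a log2 change of -0.10 ± 0.10 (adjusted p = 0.463), knockdown library 2 the highest and the other knockdown libraries the lowest. NDUFB9 was the subunit with the highest nuclear level per kilobase, 338 ± 12.2 CPM per kb in the controls. Its libraries were at 250.4, 234 and 237 CPM (controls) and 247, 273 and 231 CPM (knockdown), with a log2 change of 0.06 ± 0.09 (adjusted p = 0.629), with overlapping groups. The remaining list members, NDUFA1, NDUFA3, NDUFA8, NDUFA10, NDUFA11, NDUFA13, NDUFB4 to NDUFB8, NDUFB10, NDUFB11 and NDUFC1, had log2 changes from -0.09 (NDUFB5) to 0.29 (NDUFB6), none called.

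NDUFAB1 (chromosome 16, 23581002 to 23596356), the mitochondrial acyl carrier protein, is a subunit of both arms and also serves fatty acid, lipoate and iron-sulphur cluster synthesis. It was at 82.4, 77.8 and 71.5 CPM (controls) and 99.5, 111 and 95.4 CPM (knockdown). All knockdown libraries were above all controls. The mean went from 77.2 ± 5.498 to 102 ± 8.005 CPM (SD, n = 3 each), a rise of 1.32-fold (log2 change 0.40 ± 0.09, adjusted p = 0.00424). Without knockdown library 2 the log2 change was 0.33 (adjusted p = 0.0140). Counting it, 9 of the 37 nuclear-encoded subunits rose (24.3%) and 0 fell, beside the 15.9% and 15.9% of all genes tested.

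RefSeq promoter windows (GRCh38.p14, 250 bases before to 50 after a start site) were matched to 40 of the 48 nuclear genes. They were searched on both strands for the motifs of YY1, NRF1 and GABP, factors known to act at genes of mitochondrial proteins, and for the E-box, which MYC can bind. The YY1 motif AANATGGCG was held by 12 of the 40 (30%) and by 5.59% of 15843 protein-coding genes. The NRF1 motif, GCGCA, any base, then GCGC, was held by 7 (17.5% against 9.67%), the GABP motif CCGGAAG by 7 (17.5% against 16.5%) and the E-box CACGTG by 4 of the 40 (against 10.9%). Matches of different motifs overlapped in 0 cases. The YY1 motif was present in 5 of the 12 matched genes that rose and in 7 of the other 28. In 9 genes it lay on the gene's own strand, 8 to 25 bases after the start site. The sequences below, from 5 genes that rose and then from NDUFS4 and NDUFS7, which were not called, show the motif in its place, in capitals with 10 bases on each side, 5′ to 3′ on the gene's strand.
NDUFS3: gcatctgagtAACATGGCGgcggcggcgg
NDUFS6: ccagcggcgcAAAATGGCGgcggcgatga
NDUFA6: atgctttggcAAGATGGCGgggagcggcg
NDUFA9: attgtgggaaAAGATGGCGgctgccgcac
NDUFAF8: ggacggacctAAGATGGCGgcctccaggg
NDUFS4: tgcctgcagcAAGATGGCGgcggtgtcaa
NDUFS7: ggccgaggccAAGATGGCGgtgctgtcag
The stretches lie at NDUFS3 chr11:47579079-47579107 (+), NDUFS6 chr5:1801405-1801433 (+), NDUFA6 chr22:42090729-42090757 (-), NDUFA9 chr12:4649114-4649142 (+), NDUFAF8 chr17:81239317-81239345 (+), NDUFS4 chr5:53560650-53560678 (+) and NDUFS7 chr19:1383914-1383942 (+). A match describes the letters only. RNA of YY1 itself was at 151, 151 and 159 CPM (controls) and 193, 166 and 186 CPM (knockdown), with a log2 change of 0.24 ± 0.08 (adjusted p = 0.0402). YY1 lost its call when control 1 (adjusted p = 0.0666), control 2 (0.150), control 3 (0.0663), knockdown library 1 (0.160) or knockdown library 3 (0.139) was left out. It also lost its call under no low-count filter (0.0794), upper-quartile scaling (0.107) and a block by replicate number (0.0544).

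The NDUFAF genes encode assembly factors, and 4 of the 8 rose (50%) while 0 fell, with a median log2 change of 0.32, beside 15.9% higher and 15.9% lower of all genes tested. Without knockdown library 2 the calls of NDUFAF4 and NDUFAF8 were left, 2 of the 8, with a median of 0.25. With all 6 libraries, all 8 had a log2 change above 0, and without knockdown library 2, 7 of the 8 did. NDUFAF4 (chromosome 6, 96889313 to 96897881), which works with NDUFAF3 on the ubiquinone-reducing module, showed the highest log2 change among the 55. It was at 22.7, 14.04 and 12.3 CPM (controls) and 29.7, 35.8 and 29.5 CPM (knockdown). Control 1 was the nearest control to the knockdown libraries, but the lowest of these was still above it. The mean went from 16.3 ± 5.55 to 31.6 ± 3.63 CPM (SD, n = 3 each), 1.95-fold higher (log2 change 0.97 ± 0.17, adjusted p = 0.00114). Its log2 change was 0.86 (adjusted p = 0.00784) without knockdown library 2 and 0.80 (adjusted p = 0.00446) without control 3. The 250 bases before its RefSeq start site are shown because this gene changed most among the assembly factors, with the single CCGGAAG match in capitals.
NDUFAF4 promoter: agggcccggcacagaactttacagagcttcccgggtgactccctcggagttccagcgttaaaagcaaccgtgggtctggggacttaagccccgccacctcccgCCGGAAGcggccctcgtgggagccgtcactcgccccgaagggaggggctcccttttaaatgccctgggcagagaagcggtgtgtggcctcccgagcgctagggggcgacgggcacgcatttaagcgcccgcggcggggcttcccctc
This stretch is chr6:96897892-96898141 on the minus strand (RefSeq, GRCh38.p14).

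NDUFAF8 (chromosome 17, 81239239 to 81241281), a partner that stabilises NDUFAF5, was at 48.3, 41.6 and 35.3 CPM (controls) and 64.6, 69.8 and 53.4 CPM (knockdown). The groups were separate (rise of 1.498-fold, log2 change 0.58 ± 0.12, adjusted p = 0.00270), and the log2 change was 0.49 (adjusted p = 0.0147) without knockdown library 2. NDUFAF5, which hydroxylates an arginine of NDUFS7, was at 8.84, 6.55 and 6.37 CPM (controls) and 8.58, 12.2 and 10.4 CPM (knockdown). These groups overlapped slightly, since control 1 lay above knockdown library 1 (rise of 1.46-fold, log2 change 0.55 ± 0.16, adjusted p = 0.0190). NDUFAF1, a member of the complex that builds the membrane arm around MT-ND2, was at 21.5, 15.5 and 14.2 CPM (controls) and 19.4, 25.4 and 21.9 CPM (knockdown), with a log2 change of 0.40 ± 0.15 (adjusted p = 0.0488). Here too control 1 was inside the knockdown range. NDUFAF5 lost its call when control 2 (adjusted p = 0.0921), control 3 (0.0757), knockdown library 2 (0.0928) or knockdown library 3 (0.0507) was left out. NDUFAF1 lost its call when control 2 (adjusted p = 0.184), control 3 (0.192), knockdown library 2 (0.189) or knockdown library 3 (0.101) was left out and under a filter of 1 CPM in 3 libraries (0.0531), DESeq2 (0.0545), mitochondrial genes left out of the scaling (0.0506) and upper-quartile scaling (0.0836). The log2 changes without knockdown library 2 were 0.42 for NDUFAF5 and 0.30 for NDUFAF1. NDUFAF6, needed early in the assembly of the MT-ND1 module, and NDUFAF7, a methyltransferase of the peripheral arm, had separate groups but were not called (log2 changes 0.23 ± 0.09 and 0.22 ± 0.10, adjusted p = 0.0533 and 0.114). NDUFAF2 and NDUFAF3 had log2 changes of 0.14 and 0.10 with overlapping groups. Per kilobase of transcript the assembly factors had lower levels than the subunits, with a control median of 15.3 CPM per kb against 61.2 for the nuclear-encoded subunits. NDUFAF8 was the highest of them (67.9).

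**Figure D2:**
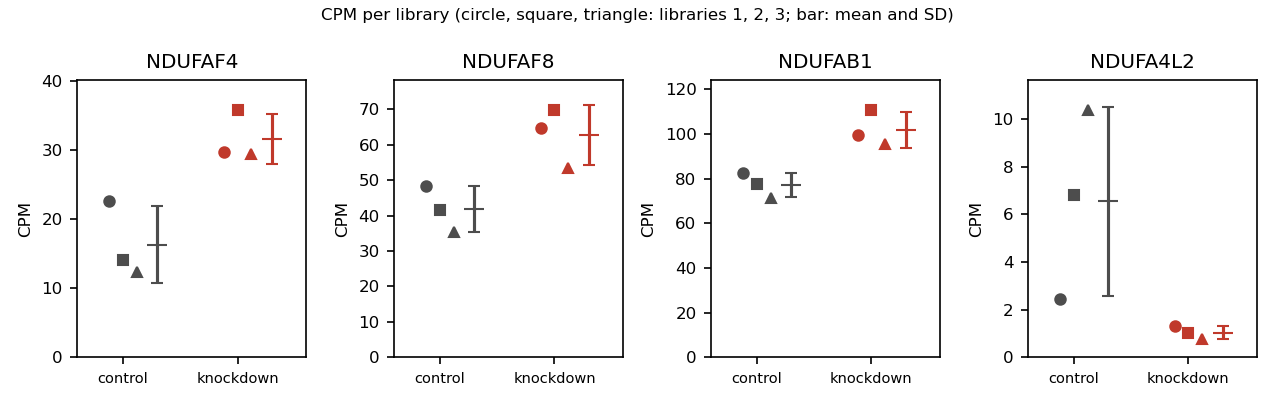
CPM (vertical axis, from 0) of the 4 genes whose calls held in all settings, in each control (grey) and knockdown (red) library, with the group mean and SD as a bar. NDUFAF4, NDUFAF8 and NDUFAB1 were higher in each knockdown library than in any control, and NDUFA4L2 was lower, with its 3 controls far apart at 2.46, 6.80 and 10.4 CPM.

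NDUFA4 carries a complex I name but its protein is now placed in complex IV, cytochrome c oxidase, and NDUFA4L2 is its hypoxia-induced paralog, known to lower complex I activity. NDUFA4L2 (chromosome 12, 57234903 to 57240715) was the gene that fell. It had 42, 139 and 186 counts (controls) and 10, 20 and 15 counts (knockdown), or 2.46, 6.80 and 10.4 CPM (controls) and 1.30, 1.04 and 0.782 CPM (knockdown). Every knockdown library was below every control, and the controls themselves differed by more than 4-fold, with control 1 the nearest to the knockdown. The fall was 6.62-fold (log2 change -2.73 ± 0.44, adjusted p = 0.000596). Without control 3 the log2 change was -2.23 (adjusted p = 0.00175). NDUFA4L2 shares 33 exon bases with SHMT2, a one-carbon enzyme gene on the opposite strand, which was at 389, 446 and 447 CPM in controls and 356, 384 and 339 CPM in the knockdown (log2 change -0.25, adjusted p = 0.0437). The part of SHMT2 reads in the NDUFA4L2 counts was not tested. NDUFA4 was at 108, 95.6 and 81.1 CPM (controls) and 105, 139 and 105 CPM (knockdown), with a log2 change of 0.30 ± 0.12 (adjusted p = 0.0746), with control 1 inside the knockdown range, so it was not called. The read-through NDUFC2-KCTD14, which shares exons with NDUFC2 and so has uncertain counts, was at 1.76, 0.685 and 3.80 CPM (controls) and 4.42, 3.13 and 2.55 CPM (knockdown), with a log2 change of 0.65 ± 0.42 (adjusted p = 0.251). Without control 3 its log2 change was 1.43 (adjusted p = 0.0166).

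The 7 mitochondrially encoded genes give the core subunits of the membrane arm. Of the 7, MT-ND3 alone was called, and it was higher in the knockdown. This is 14.3% of the 7, beside 15.9% of all genes tested called higher. The median log2 change of the 7 was 0.20. MT-ND3 was at 642, 553 and 565 CPM (controls) and 678, 862 and 720.01 CPM (knockdown). Its groups did not overlap and knockdown library 2 was the highest (rise of 1.28-fold, log2 change 0.36 ± 0.10, adjusted p = 0.0152). MT-ND3 lost its call when control 2 (adjusted p = 0.0865) or control 3 (0.0569) was left out. MT-ND1 and MT-ND2, the proximal subunits of the membrane arm, were not called. MT-ND1 was at 4186, 3759 and 3393 CPM (controls) and 4528, 3949.9 and 4574 CPM (knockdown). MT-ND2 was at 4097, 3524 and 3281 CPM (controls) and 4429, 3732 and 4506 CPM (knockdown). In both, knockdown libraries 1 and 3 were above all controls while library 2 lay below control 1 (log2 changes 0.20 ± 0.10 and 0.22 ± 0.11, adjusted p = 0.150 and 0.144). MT-ND4, a distal proton channel, was at 7291, 6580.1 and 6436 CPM (controls) and 8053, 6755 and 7802 CPM (knockdown), with a log2 change of 0.15 ± 0.10 (adjusted p = 0.262). MT-ND5, the channel at the far end, was at 3196, 2955 and 2906 CPM (controls) and 3624, 2429 and 3376 CPM (knockdown), with a log2 change of 0.06 ± 0.13 (adjusted p = 0.758). In MT-ND5 knockdown library 2 was the lowest of all 6 libraries and the other knockdown libraries were the highest. MT-ND4L, a small subunit, was at 640.3, 586 and 587 CPM (controls) and 907, 575 and 793 CPM (knockdown), with a log2 change of 0.33 ± 0.13 (adjusted p = 0.0681), with the same order of the knockdown libraries.

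Left without knockdown library 2, the test called 6 of the 7 higher, where 14.6% of 14876 genes were called higher. The log2 changes were then 0.27 (adjusted p = 0.0350) for MT-ND1, 0.30 (adjusted p = 0.0269) for MT-ND2, 0.25 (adjusted p = 0.0395) for MT-ND3, 0.23 (adjusted p = 0.0359) for MT-ND4, 0.49 (adjusted p = 0.00164) for MT-ND4L and 0.21 (adjusted p = 0.0455) for MT-ND5. That fit compares 2 knockdown libraries with 3 controls. MT-ND3 kept its call without knockdown library 1 or 3. Values of the other MT-ND genes in those fits are not given here. On leaving out control 2 or control 3, 0 of the 7 were called, with 8.54% and 9.46% of all genes called higher. On leaving out control 1 there were 3 calls, with 17.2% of all genes called higher, and the log2 changes were 0.29 (adjusted p = 0.0499) for MT-ND1, 0.31 (adjusted p = 0.0394) for MT-ND2 and 0.43 (adjusted p = 0.00907) for MT-ND3.

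**Figure D3:**
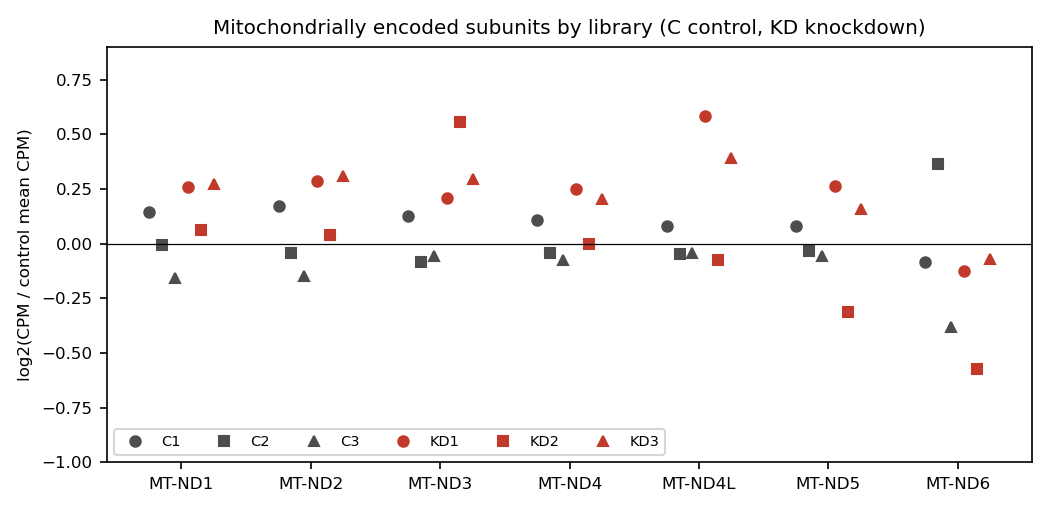
Level of each MT-ND gene in each library, as log2 of its CPM over the mean CPM of the controls (vertical axis), with controls in grey and knockdown libraries in red. Knockdown libraries 1 and 3 lie above all controls for 6 genes, MT-ND6 being the exception, and knockdown library 2 lies below both of them for all but MT-ND3.

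MT-ND6 is encoded on the opposite strand of mitochondrial DNA from the other 6 and its mRNA is known to lack a stable poly(A) tail. Per kilobase it was the lowest of the 7, at 113 ± 30.02 CPM per kb in controls, and MT-ND5, the next lowest, was 14.7-fold higher. MT-ND6 was at 56.1, 76.6 and 45.7 CPM (controls) and 54.5, 40.01 and 56.7 CPM (knockdown), with a log2 change of -0.25 ± 0.16 (adjusted p = 0.264). The groups overlapped and the controls spread widely, with control 2 the highest of the 6. MT-ND4 had the highest level of the 7, 4912 ± 332 CPM per kb, followed by MT-ND1 at 3954 ± 415 and MT-ND2 at 3488 ± 402. MT-ND1 was above MT-ND2 in each control, though their ranges of 1 SD overlapped. MT-ND4L was at 2035 ± 104. MT-ND3 and MT-ND5, at 1696 ± 139 and 1666 ± 85.6, did not differ beyond their spread. The median level per kilobase of the 7 was 33.3-fold that of the 37 nuclear-encoded subunits. MT-ND4L and MT-ND4 are carried on 1 mRNA with reading frames that overlap. The ends of these genes are shown because the overlap leaves the split of reads between them uncertain, with the shared 7 bases in capitals (GENCODE release 29 transcripts, GRCh38).
MT-ND4L, last 30 bases: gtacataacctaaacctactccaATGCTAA
MT-ND4, first 30 bases: ATGCTAAaactaatcgtcccaacaattata
They lie at chrM:10737-10766 and chrM:10760-10789, plus strand.

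The MT-ND genes were set beside the other mRNAs of mitochondrial DNA. Of those 6, 0 rose and 1 fell, namely MT-CO1, the catalytic subunit of cytochrome c oxidase. Over all genes tested, 15.9% were higher and 15.9% lower. MT-CO1 was at 17509.8, 17752 and 15738 CPM (controls) and 14162, 12912 and 14083 CPM (knockdown), with no overlap (log2 change -0.31 ± 0.10, adjusted p = 0.0280). MT-CO1 lost its call when control 2 (adjusted p = 0.120), knockdown library 1 (0.0574) or knockdown library 3 (0.0596) was left out. It also lost its call with a block by replicate number (0.0568). The MT-ND genes together took 35.6, 34.0 and 35.5% of the counts of mitochondrial mRNAs (controls) and 40.8, 37.9 and 40.6% (knockdown). All knockdown libraries, library 2 included, were above all controls in this share. MT-CO1, which was called lower, is among the mRNAs that the share is taken of. The summed CPM of the MT-ND genes in knockdown library 2, 18343, lay inside the range of the controls, 17214 to 20108. The ratio of MT-ND to MT-CO1 counts was 1.15, 1.02 and 1.09 in controls and 1.57, 1.42 and 1.55 in the knockdown. A ratio within the mitochondrial mRNAs needs no scaling to the library, and it shows unequal change, not which of the 2 moved. The mitochondrial rRNA genes MT-RNR1 and MT-RNR2 were not called (log2 changes 0.19 and -0.19).

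Nuclear and mitochondrial subunits were then compared library by library. Nuclear-encoded subunits summed to 2903, 2765 and 2664 CPM (controls) and 2929, 3428 and 2801 CPM (knockdown). MT-ND genes summed to 20108, 18034 and 17214 CPM and 22273, 18343 and 21829 CPM. Knockdown library 2 was the highest of the 6 for the nuclear sum, whereas libraries 1 and 3 were the highest for the MT-ND sum. There were 14.4, 15.3 and 15.5 nuclear subunit counts per 100 MT-ND counts (controls) and 13.2, 18.7 and 12.8 (knockdown). The means were 15.1 ± 0.563 and 14.9 ± 3.29 (SD, n = 3 each). The log2 difference of the ratio was -0.04, far inside the pooled spread of 0.22, and the knockdown libraries lay on both sides of the controls. Knockdown libraries 1 and 3 were below every control and library 2 above every control. Without library 2 the log2 difference was -0.21.

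**Figure D4:**
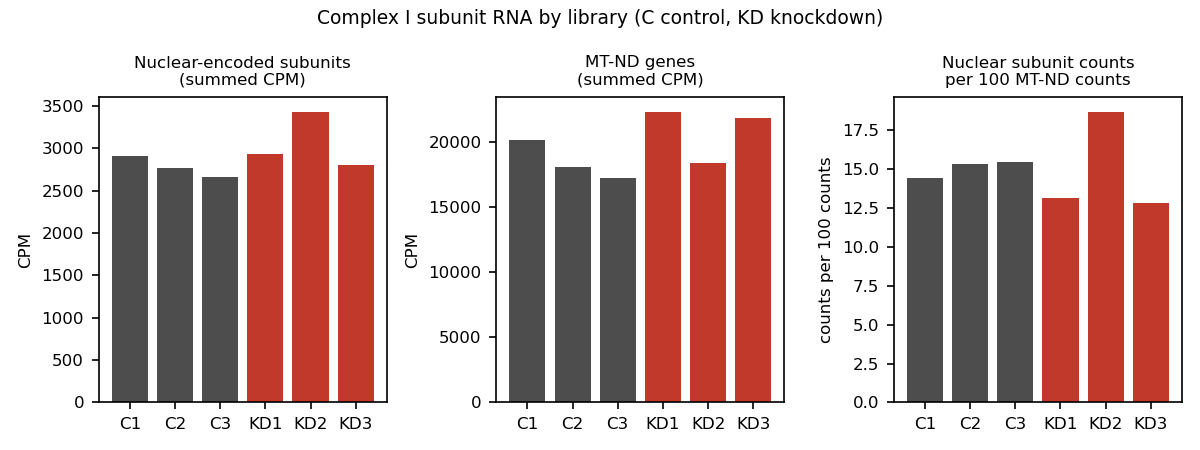
Summed CPM of the 37 nuclear-encoded subunits (left), summed CPM of the 7 MT-ND genes (middle) and nuclear subunit counts per 100 MT-ND counts (right) in each library, as bars from 0, with controls in grey and knockdown libraries in red. The right panel shows knockdown library 2 at 18.7, above the controls, and the other knockdown libraries at 13.2 and 12.8, below them.

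Knockdown library 2 was the highest of the 6 libraries for 32 of the 37 nuclear-encoded subunits and for all 8 NDUFAF genes, where 22.4% of all genes tested had it highest. It was also the highest for 75 of 77 cytosolic ribosomal protein genes, a group of abundant mRNAs, of which 0 were called in the comparison of the groups by edgeR (2 higher at an unadjusted p under 0.05). On the log2 CPM scale it exceeded the mean of the other knockdown libraries by a median of 0.30 over the 37 subunits and 0.39 over the ribosomal proteins. For transcripts of up to 1000 bases the median excess was 0.30 in 22 subunits and 0.29 in 641 nuclear protein-coding genes, with 0.42 in 40 ribosomal protein genes. For longer transcripts it was 0.28 in 15 subunits and 0.01 in 12062 genes, with 0.33 in 37 ribosomal protein genes. By these medians the short subunits lay at the level of other short genes in this library, and the longer subunits above other long genes. Within the class of over 1000 bases, the lengths of the subunits and of the other genes were not matched. Annotated lengths are approximate, and NDUFS7, NDUFS6 and NDUFB2 lay just above the cut, at 1039, 1082 and 1090 bases. The longest 4 nuclear transcripts among the subunits, those of NDUFA9, NDUFS1, NDUFA10 and NDUFV3, had an excess between -0.13 and 0.05. MT-ND genes went the other way, from -0.56 for MT-ND4L to -0.20 for MT-ND1, except MT-ND3 at 0.30. Without library 2 the nuclear-encoded subunits had a median log2 change of 0.06 in place of 0.16. Of the 37, 2 were then called higher, NDUFAB1 and NDUFA9, where 14.6% of all genes tested were called higher. Correcting each library for its trend with transcript length gave 10 calls among the 37 and a median of 0.13. The share of all genes called with that correction is not given here, so this count has no background beside it.

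**Figure D5:**
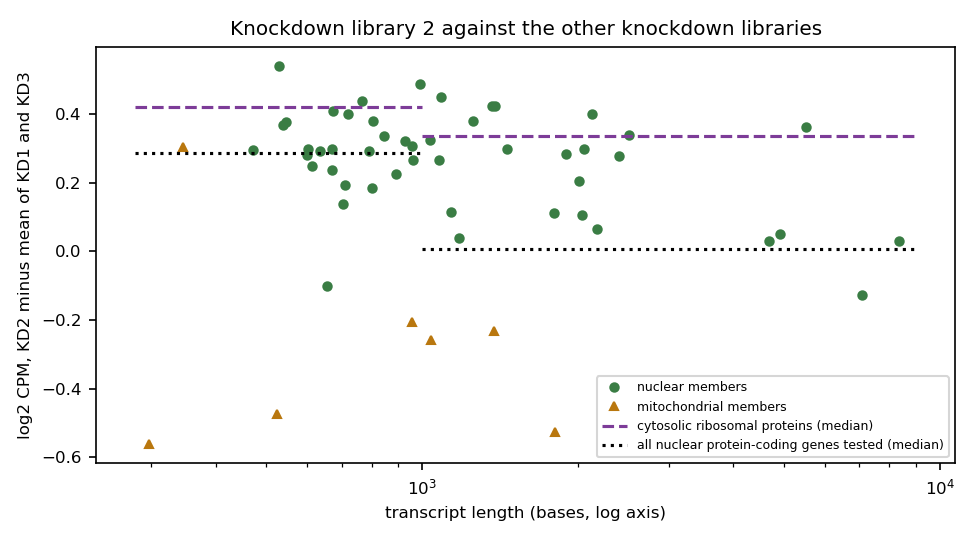
Log2 CPM of knockdown library 2 minus the mean of knockdown libraries 1 and 3 (vertical axis) for each complex I gene against its transcript length (log axis). Green circles are nuclear genes and orange triangles MT-ND genes, and lines give medians of ribosomal protein genes and of all nuclear protein-coding genes, up to and over 1000 bases. Most nuclear genes lie above 0 and 6 of the 7 MT-ND genes below it.

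Genes that make or supply complex I without belonging to it by name were described in lists by function. The lists were chosen with earlier results of these data known, so their shares are a description only. Mitochondrial transcription and DNA maintenance gave 8 rises and 0 falls of 15 (median log2 change 0.35), beside the 15.9% and 15.9% of all genes. MTERF3, a factor of mitochondrial ribosome assembly, was at 48.9, 35.01 and 28.8 CPM (controls) and 64.8, 77.5 and 70.8 CPM (knockdown), with a log2 change of 0.93 ± 0.15 (adjusted p = 0.000519). TFB2M, which opens the promoter for the mitochondrial RNA polymerase, was at 33.3, 23.5 and 24.2 CPM (controls) and 39.4, 44.9 and 44.2 CPM (knockdown), with a log2 change of 0.68 ± 0.12 (adjusted p = 0.00118). POLRMT, the polymerase itself, was at 86.6, 82.3 and 86.6 CPM (controls) and 118, 117 and 109 CPM (knockdown), with a log2 change of 0.43 ± 0.08 (adjusted p = 0.00143). Each of these was higher in all knockdown libraries than in any control, as was TFAM, which packages mitochondrial DNA (log2 change 0.44 ± 0.10, adjusted p = 0.00347). Mitochondrial RNA processing and stability gave 13 rises and 0 falls of 20 (median 0.39). FASTKD5, which matures mRNAs that no tRNA flanks, was at 41.9, 37.3 and 36.0 CPM (controls) and 55.8, 57.1 and 56.0 CPM (knockdown), with a log2 change of 0.55 ± 0.09 (adjusted p = 0.000534). PNPT1, a subunit of the mitochondrial RNA degradosome, was at 49.6, 38.2 and 34.4 CPM (controls) and 63.5, 67.3 and 74.5 CPM (knockdown), with a log2 change of 0.75 ± 0.12 (adjusted p = 0.000545). The groups were again separate in both, and in PRORP, the RNase P nuclease (log2 change 0.59 ± 0.10, adjusted p = 0.000655), and FASTKD3 (log2 change 0.84 ± 0.16, adjusted p = 0.00137).

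Iron-sulphur cluster supply, on which the peripheral arm depends, gave 8 rises and 0 falls of 16 (median log2 change 0.27), where 15.9% of all genes tested rose and 15.9% fell. BOLA3, a late-acting cluster factor, was at 19.6, 19.4 and 14.5 CPM (controls) and 26.7, 30.3 and 25.1 CPM (knockdown), with a log2 change of 0.62 ± 0.12 (adjusted p = 0.00219), and HSPA9, the mitochondrial HSP70, at 669, 614 and 548 CPM (controls) and 815, 816 and 816 CPM (knockdown), with a log2 change of 0.42 ± 0.09 (adjusted p = 0.00340). HSPA9 was nearly equal in the 3 knockdown libraries, all above the controls. NFS1, the cysteine desulphurase, and FDX2, a ferredoxin, also rose (log2 changes 0.35 ± 0.09 and 0.47 ± 0.13, adjusted p = 0.0105 and 0.0135). NFS1 lost its call when control 2 (adjusted p = 0.0604), control 3 (0.0547) or knockdown library 3 (0.0502) was left out. FDX2 lost its call when control 3 (adjusted p = 0.0665) or knockdown library 2 (0.0615) was left out. Assembly factors outside the NDUFAF names gave 3 rises and 0 falls of 12 (median 0.11), TMEM70, TMEM126A and TMEM126B, or 25% risen. TMEM70, which serves complex V and complex I, was at 46.3, 40.7 and 33.0 CPM (controls) and 65.4, 75.0 and 66.4 CPM (knockdown), with wide separation (log2 change 0.79 ± 0.11, adjusted p = 0.000286). TMEM126A and TMEM126B, both membrane-arm factors, were smaller changes (log2 changes 0.41 ± 0.13 and 0.32 ± 0.12, adjusted p = 0.0261 and 0.0468). TMEM126A lost its call when control 2 (adjusted p = 0.0828), control 3 (0.123) or knockdown library 2 (0.107) was left out. TMEM126B lost its call when control 2 (adjusted p = 0.119), control 3 (0.183), knockdown library 2 (0.146) or knockdown library 3 (0.158) was left out. It also lost its call under a filter of 1 CPM in 3 libraries (0.0528), DESeq2 (0.0669) and upper-quartile scaling (0.0948). The same held for the transcript length correction, alone (0.0644) or with a block by replicate number (0.0931). Regulators of respiratory gene transcription gave 3 rises and 1 fall of 11, or 27.3% and 9.09%. PPRC1 and PPARGC1B, coactivators of the PGC-1 family, rose (log2 changes 0.52 ± 0.09 and 0.42 ± 0.11, adjusted p = 0.000886 and 0.0127), while PPARGC1A, another of that family, fell, with 7.61, 7.78 and 9.11 CPM against 4.68, 5.74 and 5.42 CPM (log2 change -0.60 ± 0.15, adjusted p = 0.00749). PPARGC1B lost its call when control 2 (adjusted p = 0.0720), knockdown library 1 (0.0518) or knockdown library 3 (0.0734) was left out.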

How the data were processed

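Polyadenylated RNA of 3 control and 3 knockdown libraries was sequenced; per the labels' protocols the kit was TruSeq Stranded mRNA. Per the submitters' processing notes, the authors used RSEM, STAR 2.7.9a and Trim Galore 0.6.4 with the build GRCh38.p13. No source used here gives the annotation, the RSEM version or the strand setting. The deposited files hold whole numbers per gene, read here as RSEM's expected counts rounded before deposit. Pseudoautosomal Y copies (44 rows) were added to X copies. Symbols came from the gene name table, and coordinates, biotypes and transcript lengths (principal transcripts) from GENCODE release 29 (GRCh38), which held 58396 of 60664 genes.

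Knockdown was set against control in edgeR 4.0.16 under R 4.3.3 with filterByExpr, TMM scaling, glmQLFit and glmQLFTest without covariates, 2-sided p-values adjusted by Benjamini-Hochberg over 14673 genes. The SE was taken as log2 change over the root of the F statistic, and CPM uses TMM-scaled library sizes. On simulated counts of 14474 genes in this design it found 65 of the 98 genes set to a 1.5-fold change and 83 of the 96 set to 2-fold. Of its 160 calls, 12 were in unchanged genes. Far fewer genes were changed there than the 31.7% called in the data, and no change under 1.5-fold was tried. The simulation thus gives no recovery rate for smaller changes. No replicate pair matched within counting noise, with chi-square values of 2.8 to 16.8 per degree of freedom. Genes named were the MT-ND genes, all members called, the extremes of each role list and up to 4 called genes per pathway list. The values of 1 member and of 1 marker are not reported here. The members and lists were chosen with earlier results of these data known. Alternatives were RLE and upper-quartile scaling, other low-count filters, DESeq2 1.42.0, limma-voom (limma 3.58.1), a replicate block, leaving out each library, mitochondrial genes left out, and a transcript length correction.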

Additional observations from a re-analysis of the deposited data

How the results depend on the processing

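No called gene of the 55, and no called gene named from the pathway lists, changed sign under any alternative. In place of 15 calls among the 55, upper-quartile scaling gave 7, and in place of 9 among the nuclear-encoded subunits it gave 2. In place of 1 call among the MT-ND genes, DESeq2, no low-count filter and the replicate block each gave 2. For these fits the shares of all genes called are not given here, so they may call more genes throughout. Leaving out 1 library gave 5 to 22 calls among the 55, 1 to 12 among nuclear-encoded subunits, 0 to 6 among MT-ND genes, 2 to 5 among NDUFAF genes (in place of 4) and 24 to 40 in the pathway lists (in place of 37). The log2 difference of the nuclear to mitochondrial ratio then ran from -0.21 to 0.06. Over all genes tested, the share called higher was 17.2%, 8.54% and 9.46% without control 1, 2 and 3. It was 14.6% without knockdown library 2, in place of 15.9% with all 6 libraries. The cause of these differences was not tested, though these fits have fewer samples. Whether the numbers shared by controls and knockdown libraries pair them was not settled. Correlations of same-numbered deviations were 0.03, 0.10 and -0.03, and those of differently numbered ones ran from -0.08 to 0.04. With 3 libraries in each group these values cannot decide it. With the replicate block 19 of the 55 were called, and the share of all genes called in that fit is not given here. Under that block MT-CO1 and YY1 lost their calls (adjusted p = 0.0568 and 0.0544), as did TMEM126B under the block with the length correction (0.0931). Leaving out mitochondrial genes gives no value for MT-ND genes. Depth limits NDUFA4L2, NDUFC2-KCTD14 and NDUFAF5 most, which had the fewest counts.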
